A study of Tachysurus fulvidraco x Tachysurus vachelli with 9 samples.

Results

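The interleukin-1 beta loci of the hybrid yellow catfish were taken as the 6 genes of the deposited expression table whose locus identifiers are LOC113635105, LOC113635102, LOC113635103, LOC113638324, LOC113638465 and LOC113638463, out of 26163 genes in all. The rule that picks them uses name and annotation and no expression value. Posterior intestine was compared among 3 groups of 3 individuals each. Rec fish were given 96 h to recover from a simulated transport that lasted 16 h. Str fish were taken at the end of 16 h of transport, and Ctrl fish came from the 0 h group. The study lists 0 h among its transport times, and the handling of those fish before sampling is not described. Food was withheld before the transport, and feeding during recovery is not described. No control fish of the later sampling times were sequenced. Effects of transport, of time since feeding and of sampling time therefore cannot be told apart. All fish were hybrids of a Tachysurus fulvidraco female and a Pseudobagrus vachellii male, and reads of both parental copies were mapped to the genome of the maternal species alone. Several fish were transported in each bag, and which bag a library came from was not known here, so effects of a bag and of a fish cannot be told apart. Groups followed the deposited labels. However, the study's read statistics list more mapped than valid reads for the libraries Str-1, Rec-2 and Rec-3. The same holds for Ctrl-3, but its mapped entry has a digit more than any other, which looks like a separate misprint. The mapped reads named Str fit the valid reads named Rec, and the reverse. The names of these groups thus look exchanged in 1 of those lists. The library totals of the deposited counts follow the mapped reads, and an exchange of Str and Rec in the labels would turn round each comparison of Str with Rec and swap their comparisons with Ctrl. Library totals ran from 54829614 to 73110636 in Rec, 48605412 to 60279138 in Str, and 60670586 to 63899568 in Ctrl. Intestinal epithelium markers were present in every library, with 15 loci summing to between 8933 and 12402 FPKM (fragments scaled to transcript length and library depth) in Rec, 2160 and 3169 FPKM in Str, and 4614 and 8091 FPKM in Ctrl.

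Interleukin-1 beta is an early cytokine of inflammation, made above all by macrophages and other myeloid cells as a precursor that lacks a secretion signal. An inflammasome, assembled from a sensor such as NLRP3 and the adaptor ASC, activates a caspase that cleaves the precursor. The released cytokine binds the type 1 receptor with its accessory protein and signals through MyD88, the IRAK kinases and TRAF6 to NF-kB, whereas the type 2 receptor takes up the cytokine without signaling. In bony fish, interleukin-1 beta is often encoded by more than 1 gene.

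The 6 loci lay in 2 groups of 3. On scaffold NW_020848181.1, of which the table holds these 3 loci and no other, LOC113635105 spanned bases 7207 to 9446, LOC113635102 bases 16960 to 19520 and LOC113635103 bases 26936 to 29322, all on the plus strand. On scaffold NW_020848277.1, which holds 169 loci of the table, LOC113638324 spanned bases 2874073 to 2876817 on the plus strand, followed by LOC113638465 at 2884203 to 2886300 and LOC113638463 at 2893754 to 2909803, both on the minus strand. Neighbours were spaced alike, with gaps of 7513 and 7415 bases in the first group and 7385 and 7453 bases in the second. LOC113638463 covered 16050 bases, against 2098 to 2745 bases for the other 5 loci. All coordinates are as the table gives them, and no source used here names the build. Every locus carried the same product (IL-1 beta), the same set of 17 GO terms, the same 8 KEGG pathways and the same ortholog entry, K04519, which no other gene of the table held. The copies were not compared in sequence here, and reads shared by near-identical copies could have been split among them by the authors' counting, so the level of a single locus is less certain than that of their sum. The transcript that the study amplified by qRT-PCR as il-1b was listed under LOC113638465.

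All 6 loci were higher in each Str library than in any Ctrl library, and lower in each Rec library than in any Str library. In Str the 5 loci with a test had a mean level 3.46 to 5.89 times that of Ctrl, and in Rec their mean was 0.146 to 0.326 times that of Str. Without the second Str library (Str-2), the highest in every locus, these ranges were 2.22 to 3.84 times and 0.207 to 0.495 times. Of all tested genes, 14.4% had groups that did not overlap in the first of these directions and 17.2% in the second. Measured against the spread between fish and adjusted over 17244 genes, 2 of the 5 tested loci rose in Str vs. Ctrl and 3 of 5 fell in Rec vs. Str. The sixth, LOC113638465, was listed at 0 in every Rec and Ctrl library and was too low for the test. In bulk tissue, a change in the number of cells that express a gene and a change in RNA per cell cannot be told apart.

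**Figure D1:**
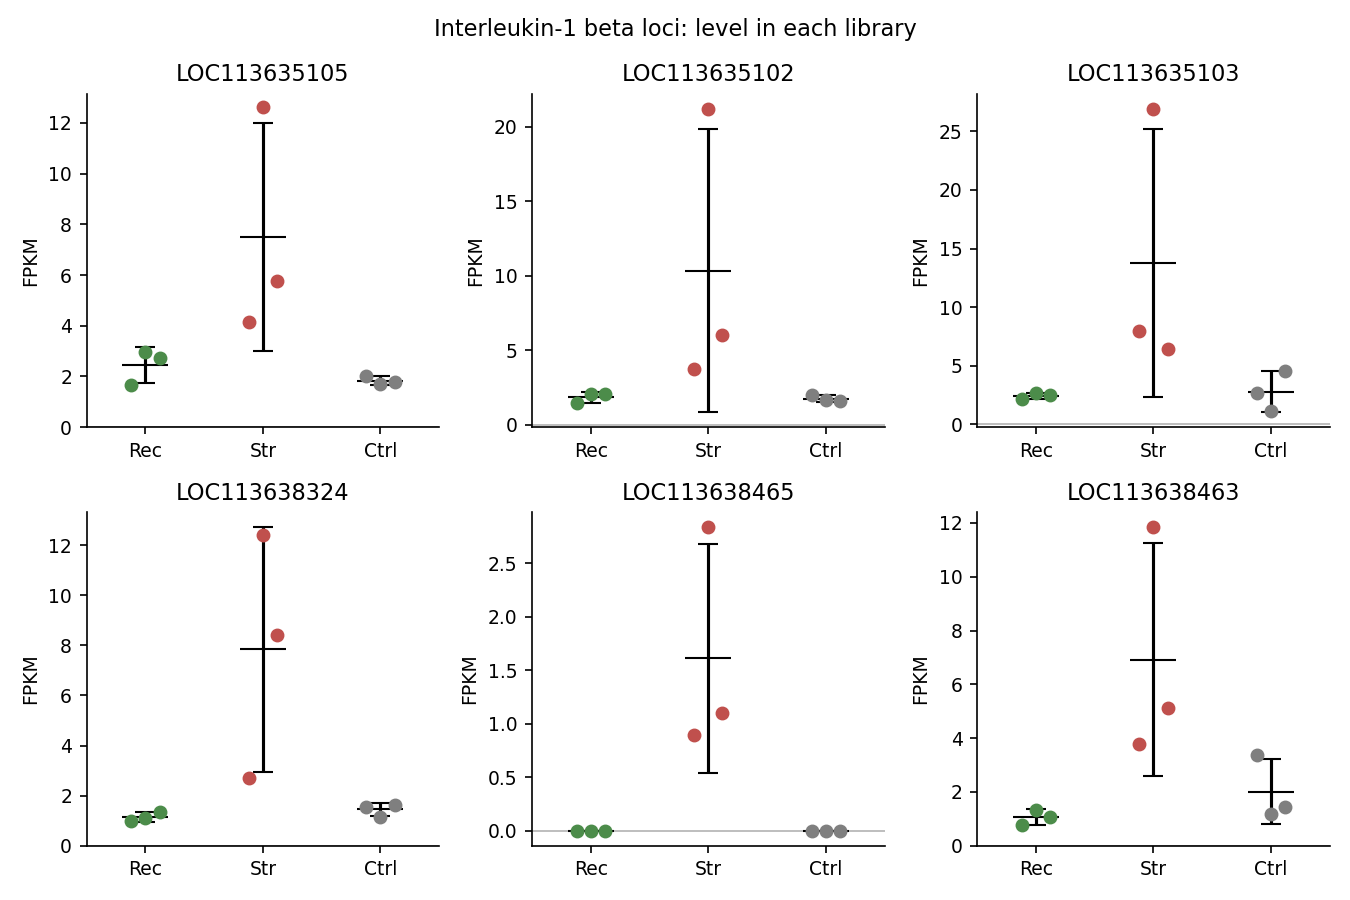
FPKM of each interleukin-1 beta locus (1 panel a locus, with its own linear axis) in Rec, Str and Ctrl. Points are the 3 libraries of a group in the order 1 to 3, the long bar is the mean and the error bar 1 SD. In every panel the 3 Str points lie above all Rec and Ctrl points, and the second Str library is the highest.

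In the first group of loci, LOC113635102 showed the largest mean rise under transport, which rested on Str-2. It had 1.43, 2.03 and 2.06 FPKM in Rec, 3.75, 21.2 and 6.04 FPKM in Str, and 2.00, 1.64 and 1.62 FPKM in Ctrl. The Rec and Ctrl libraries overlapped, all 3 Str libraries stood above them, and Str-2 stood far above the other Str fish. LOC113635102 averaged 10.3 ± 9.48 FPKM in Str and 1.75 ± 0.215 FPKM in Ctrl (SD, n = 3 each), a rise with a log2 fold change of 2.60 (SE 0.64, adjusted p = 0.0478, edgeR). In Rec it fell again to 1.84 ± 0.356 FPKM (log2 fold change against Str -2.38, SE 0.64, adjusted p = 0.0490, edgeR). Without Str-2 these log2 fold changes of LOC113635102 were 1.48 and -1.26, neither called. Among the 5 tested loci, the largest rise was then that of LOC113638324 (1.95).

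LOC113635105 gave 1.65, 2.97 and 2.71 FPKM in Rec, 4.15, 12.6 and 5.75 FPKM in Str, and 2.03, 1.71 and 1.78 FPKM in Ctrl. Its Ctrl libraries differed little, its Str libraries were all higher, and 2 of the 3 Rec libraries remained above every Ctrl library. The mean was 7.50 ± 4.50 FPKM in Str and 1.84 ± 0.165 FPKM in Ctrl (SD, n = 3 each), with a log2 fold change of 2.06 (SE 0.55) that did not pass the threshold (adjusted p = 0.0588, edgeR). Against Str, the log2 fold change of LOC113635105 in Rec was -1.49 (SE 0.54, adjusted p = 0.113, edgeR), the smallest of the 5.

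LOC113635103 was the locus with the highest mean in Str. It had 2.14, 2.67 and 2.47 FPKM in Rec, 7.95, 26.9 and 6.42 FPKM in Str, and 2.69, 1.10 and 4.59 FPKM in Ctrl. The Ctrl fish were spread widely, with a coefficient of variation of 62.4%, against 11.1% among the Rec fish. The log2 fold changes of LOC113635103 were 2.37 in Str vs. Ctrl (SE 0.68, adjusted p = 0.0737, edgeR) and -2.39 in Rec vs. Str (SE 0.68, adjusted p = 0.0582, edgeR), neither past the threshold, and without Str-2 they were 1.40 and -1.42.

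In the second group, LOC113638324 had the smallest adjusted p in both comparisons. It was listed at 0.975, 1.11 and 1.36 FPKM in Rec, 2.69, 12.4 and 8.42 FPKM in Str, and 1.56, 1.15 and 1.63 FPKM in Ctrl. Here Str-2 and Str-3 were both high and Str-1 was the low one. LOC113638324 rose to 7.84 ± 4.89 FPKM in Str, against 1.44 ± 0.261 FPKM in Ctrl (SD, n = 3 each; log2 fold change 2.48, SE 0.58, adjusted p = 0.0397, edgeR). It fell to 1.15 ± 0.193 FPKM in Rec (log2 fold change against Str -2.66, SE 0.59, adjusted p = 0.0273, edgeR).

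LOC113638463 had 0.750, 1.34 and 1.07 FPKM in Rec, 3.77, 11.9 and 5.11 FPKM in Str, and 3.38, 1.17 and 1.45 FPKM in Ctrl. The first Ctrl library came close to the lowest Str library, and the other Ctrl libraries lay in or near the range of Rec. In Str vs. Ctrl the log2 fold change of LOC113638463 was 1.76 (SE 0.67) and did not pass (adjusted p = 0.153, edgeR). In Rec vs. Str the locus fell, to 1.05 ± 0.294 FPKM in Rec, against 6.91 ± 4.33 FPKM in Str (SD, n = 3 each; log2 fold change -2.58, SE 0.69, adjusted p = 0.0478, edgeR).

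LOC113638465 was the lowest of the 6 loci. It had 0.893, 2.84 and 1.10 FPKM in the Str libraries, from 71, 219 and 72 counts, and was listed at 0 in all 3 Rec and all 3 Ctrl libraries. It reached 1 FPKM in only 2 libraries, so it did not pass the filter of at least 1 FPKM in at least 3 libraries and was not tested. A read pair was taken as 4 counts here, and a library at 0 can hide up to 3 pairs, or 12 counts, for counting error only. Set against that limit in each library (a mean of 0.193 CPM in Rec and 0.192 CPM in Ctrl, counts scaled to the library total), the Str mean of 2.13 ± 1.40 CPM (SD, n = 3) was at least 11.1-fold higher than in Ctrl and at least 11.1-fold higher than in Rec. Without Str-2 the bound over Ctrl was at least 6.91-fold. With no filter on low values, LOC113638465 passed the test in Str vs. Ctrl (adjusted p = 0.0394, edgeR) and in Rec vs. Str (adjusted p = 0.0331, edgeR), as it did with edgeR's own filter on counts (adjusted p = 0.0405 and 0.0346). It had counts in the Str libraries alone, so it entered both fits only through the group where it was high. These p-values are therefore no further support for its rise. The locus is 1 of 8671 genes listed under the reference annotation's own number instead of one assigned in assembly, and 29.6% of the values of such genes were 0, against 7.07% for the others. Its zeros therefore stand in a class of genes with many zeros, and the part of this in the difference was not tested.

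In Str vs. Ctrl, 2 of 5 tested loci rose (LOC113635102 and LOC113638324) and none fell, where 2.78% of all tested genes rose and 3.1% fell. With the study's thresholds (log2 fold change of 1 or more in size, p below 0.05 before adjustment), all 5 were higher, against 7.32% of all tested genes. DESeq2 on the same counts called 4 of 5 as higher, all but LOC113638463, against 6.54% of tested genes. In Rec vs. Str, 3 of 5 fell (LOC113635102, LOC113638324 and LOC113638463) and none rose, where 4.11% of all tested genes fell and 5.03% rose. All 5 passed the study's thresholds as lower in Rec than in Str, against 8.83% of tested genes, and DESeq2 called 4 of 5 as lower, all but LOC113635105, against 8.13%. The family was chosen for study with earlier results of these data known, and its loci share a pathway and possibly reads, so these shares are a description and the loci do not count as 5 separate measurements. Both comparisons use the same Str libraries.

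**Figure D2:**
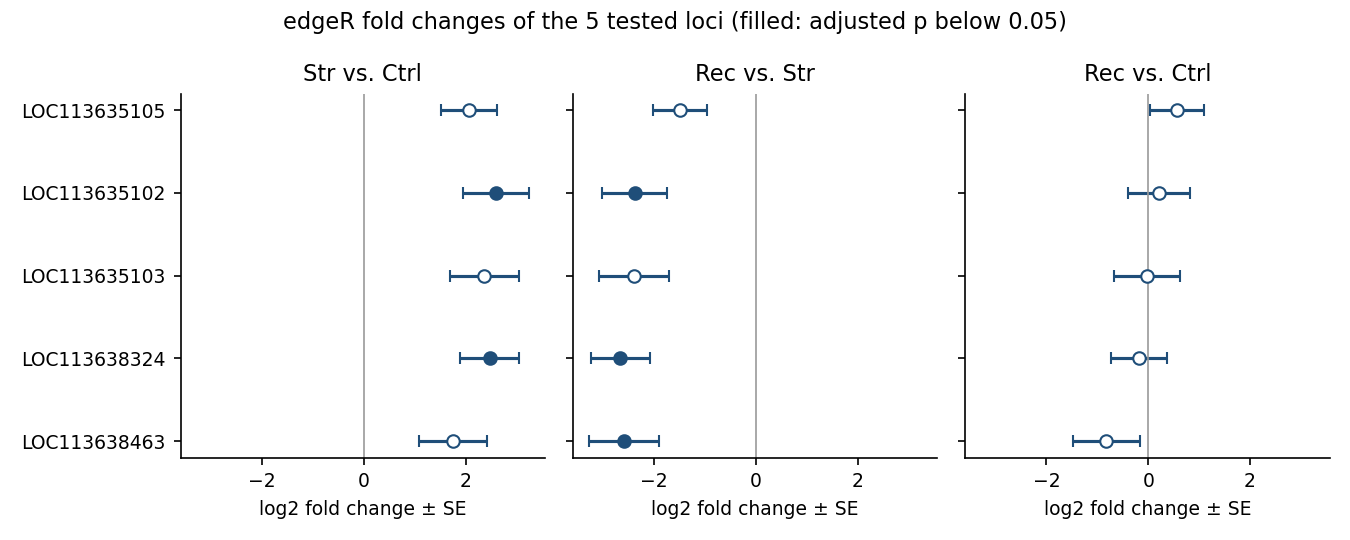
log2 fold change of the 5 tested interleukin-1 beta loci in the 3 comparisons (left to right: Str vs. Ctrl, Rec vs. Str, then Rec vs. Ctrl), from edgeR on the deposited counts with all 9 libraries in a single fit. Points are estimates, bars 1 SE to each side, and filled points have an adjusted p below 0.05. The 5 estimates lie between 1.76 and 2.60 in Str vs. Ctrl, between -2.66 and -1.49 in Rec vs. Str, and between -0.82 and 0.57 in Rec vs. Ctrl.

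The calls lay close to the threshold and rested on single libraries, on the filter and on the tool. In Str vs. Ctrl, limma on log2(FPKM + 1) called LOC113638324 and LOC113635105 (adjusted p = 0.0484 and 0.0454), but not LOC113635102 (adjusted p = 0.0695). In Rec vs. Str it called LOC113638324 and LOC113638463, but again not LOC113635102 (adjusted p = 0.0602, limma). With log2(FPKM + 0.1), limma called the same loci. With no filter on low values, neither LOC113638324 (adjusted p = 0.0567, edgeR) nor LOC113635102 (adjusted p = 0.0621, edgeR) was called in Str vs. Ctrl, and LOC113638324 alone of the 5 was called in Rec vs. Str. In Str vs. Ctrl, no locus was called without Ctrl-1, Ctrl-2, Ctrl-3, Str-2 or Str-3, LOC113638324 alone was called with any 1 Rec library left out, and both calls were made without Str-1. In Rec vs. Str, none was called without Str-2 or Str-3 or with any 1 Rec library left out, 1 was called without Ctrl-3 or Ctrl-2, and 2 when Ctrl-1 or Str-1 was left out. The direction was the same in all 90 alternative fold changes of the 5 loci in each of these comparisons. Each alternative refitted libraries in which Str did not overlap Ctrl or Rec in any of these loci. The direction could therefore hardly have changed, and its constancy is no further support.

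After recovery, no locus differed from Ctrl beyond the spread between fish. The log2 fold changes in Rec vs. Ctrl were 0.57 (SE 0.53) for LOC113635105, 0.22 (SE 0.61) for LOC113635102, -0.02 (SE 0.65) for LOC113635103, -0.18 (SE 0.55) for LOC113638324 and -0.82 (SE 0.66) for LOC113638463, with adjusted p between 0.912 and 0.999 (edgeR). The Rec and Ctrl libraries overlapped in all 6 loci, and LOC113638465 was at 0 in both. edgeR called 0 of 5 loci, DESeq2 called 0, and 0 had an unadjusted p below 0.05. Over all tested genes edgeR called 0% in this comparison, with 1002 genes at an unadjusted p below 0.05, and DESeq2 called 0.667%. The standard errors of 0.53 to 0.66 on the log2 scale limit how small a lasting difference could be seen.

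The summed level of the 6 loci depends less than a single locus on how reads were split among copies. It came to 6.95, 10.1 and 9.67 FPKM in Rec, 23.2, 87.9 and 32.8 FPKM in Str, and 11.7, 6.77 and 11.1 FPKM in Ctrl. The lowest Str library thus stood above the highest Ctrl library, and Str-2 far above both other Str libraries. Str-2 was the highest of the 9 libraries in all 6 loci, from 2.24 times the mean of the other Str libraries in LOC113638324 to 4.33 times in LOC113635102. Among the 5 tested loci, the mean level in Str exceeded that of 55.8% to 75.4% of tested genes, against 8.5% to 25.2% in Rec and 10.6% to 25.3% in Ctrl.

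**Figure D3:**
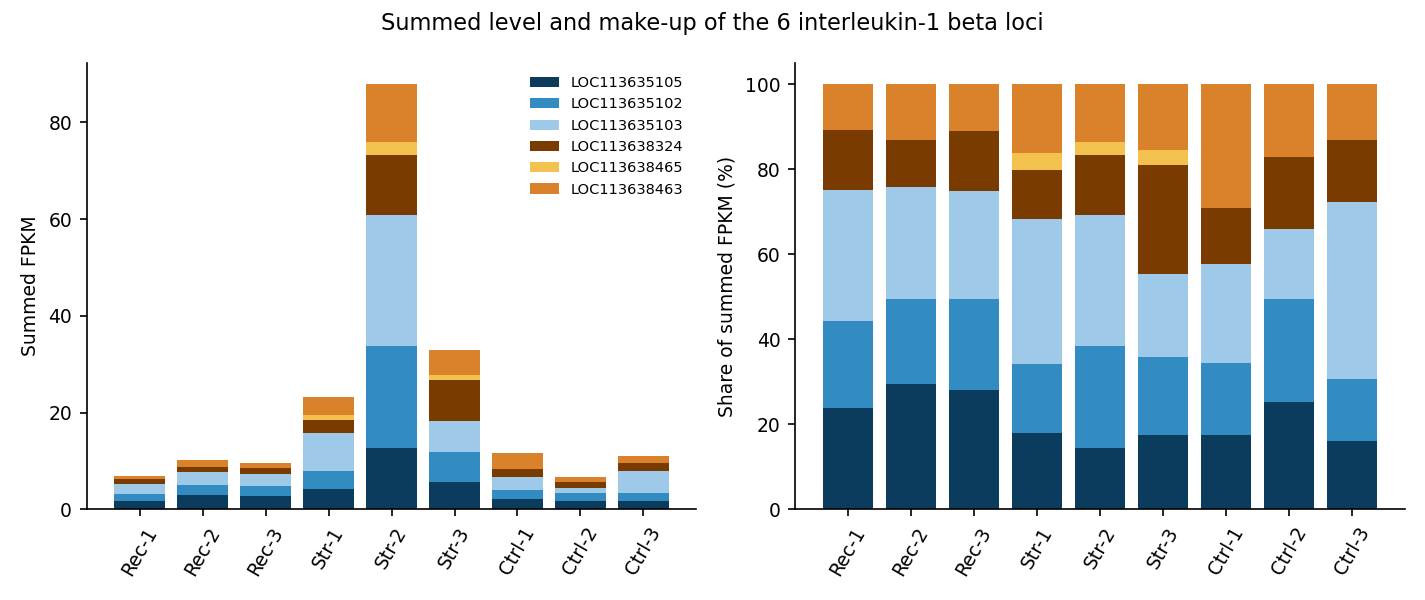
Summed FPKM of the 6 interleukin-1 beta loci in each library (left) and the share of each locus in that sum in percent (right), with libraries in the order Rec, Str, Ctrl. Blue shades are the loci of scaffold NW_020848181.1 and brown to yellow shades those of NW_020848277.1. The sum reaches 87.9 FPKM in Str-2, and the blue loci make up 55.4% to 75.8% of the sum over the 9 libraries.

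Per length, the order of the mean FPKM over the 9 libraries was LOC113635103 (6.33 FPKM), LOC113635102 (4.64), LOC113635105 (3.93), LOC113638324 (3.48), LOC113638463 (3.32) and LOC113638465 (0.536). Not every step of this order held within libraries. LOC113635103 was above LOC113635102 in 8 of 9 libraries, LOC113635105 above LOC113638324 in 8 of 9 and LOC113638463 above LOC113638465 in 9 of 9. By contrast, LOC113635102 was above LOC113635105 in only 2 of 9 libraries, and its higher mean came from Str-2, since over the 8 other libraries it averaged 2.57 FPKM and LOC113635105 2.84 FPKM, and LOC113638324 was above LOC113638463 in 5 of 9. The top locus changed between fish: it was LOC113635103 in Rec-1, Str-1, Str-2 and Ctrl-3, LOC113635105 in Rec-2, Rec-3 and Ctrl-2, LOC113638324 in Str-3 and LOC113638463 in Ctrl-1.

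The make-up of the sum differed between fish within Str and within Ctrl. The first group of loci held 75.2%, 75.8% and 74.9% of the summed FPKM in Rec, 68.3%, 69.1% and 55.4% in Str, and 57.6%, 65.9% and 72.2% in Ctrl. The Rec libraries were nearly equal and the highest, and Str and Ctrl overlapped. LOC113635105 held 27.1% ± 2.92 of the sum in Rec, 16.6% ± 1.93 in Str and 19.6% ± 4.98 in Ctrl (SD, n = 3 each). LOC113638465 held 3.47% ± 0.33 in Str.

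Whether the paralogs changed to different degrees could be tested only weakly. For each of the 15 pairs, the log2 ratio of FPKM + 0.1 was compared among the 3 groups by an exact permutation of the group labels over 1680 labelings, where the smallest p is 0.00357. Adjusted over the 15 pairs, that p becomes 0.0536 for a single pair, so no pair could have passed alone. None of the 15 passed, which does not show that the loci changed alike, and 7 had an unadjusted p below 0.05. Of these, 5 involve LOC113638465 (exact p between 0.00714 and 0.0357), whose zeros make the ratio depend on the added constant. The bound of 11.1-fold for its rise over Ctrl allows for counting error only. Among the 10 other pairs, LOC113635105 over LOC113635102 had the smallest p (exact p = 0.0321, adjusted p = 0.0765). Its log2 ratio was 0.37 ± 0.17 in Rec, -0.23 ± 0.46 in Str and 0.07 ± 0.06 in Ctrl (SD, n = 3 each). LOC113635105 over LOC113638463 had a log2 ratio of 1.14 ± 0.12 in Rec, 0.13 ± 0.04 in Str and 0.03 ± 0.65 in Ctrl (SD, n = 3 each; exact p = 0.0357, adjusted p = 0.0765). Between Str and Ctrl alone, 3 fish against 3 cannot give a two-sided exact p below 0.1. Leaving out single libraries gave 2 pairs past the threshold without Ctrl-2 and 5 without Str-1, and 0 in the 7 other cases.

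Across the 9 libraries, the 6 loci went up and down together, with Pearson's r of log2(FPKM + 1) between 0.879 and 0.980 over the 15 pairs. The points share the 3 groups, and Str-2 is the highest point in every pair. Of 9462 named genes with a group mean of at least 5 FPKM, the 5 most like the summed loci over the 9 libraries were terf2 (r = 0.974), which protects telomeres, LOC113638458 (ran-binding protein 3, r = 0.973), ugp2 (r = 0.963), which makes UDP-glucose, LOC113648685 (protein BTG2, r = 0.961), a regulator of proliferation, and csrnp1 (r = 0.961), a nuclear protein. LOC113638458 had 0.963, 0.761 and 1.19 FPKM in Rec, 8.50, 56.4 and 12.5 FPKM in Str, and 0.808, 1.14 and 1.66 FPKM in Ctrl. Like the interleukin-1 beta loci, it was highest in Str-2. It was picked for likeness to a sum that peaks in Str-2, so this adds no separate result. It lies on the scaffold of the second group of loci. LOC113648685 had 37.5, 35.0 and 51.6 FPKM in Rec, 239, 854 and 331 FPKM in Str, and 63.3, 37.3 and 30.2 FPKM in Ctrl.

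Around the cytokine, the loci of its own pathway did not move as a block. The counts of its lists are set beside the shares of all tested genes called: 2.78% as rises and 3.1% as falls in Str vs. Ctrl, and 5.03% as rises and 4.11% as falls in Rec vs. Str. The list for processing of the precursor matched 8 loci, all annotated as NLRP3 or ASC, of which 4 were tested. No locus matched its entries for a caspase or for the other parts, so the cleavage step was not covered. Of the 4 tested loci, 1 rose in Str vs. Ctrl and none fell, with a median log2 fold change of -0.45, against -0.00 over all tested genes. The locus that rose was LOC113663736, annotated as the inflammasome sensor NLRP3, with 1.44 ± 0.213 FPKM in Str and 0.475 ± 0.184 FPKM in Ctrl (SD, n = 3 each; log2 fold change 1.68, adjusted p = 0.0425, edgeR). It fell in Rec vs. Str (log2 fold change -1.83, adjusted p = 0.0280, edgeR). LOC113652105, the adaptor ASC, was at 14.05 ± 5.91 FPKM in Str and 22.4 ± 2.10 FPKM in Ctrl, with an adjusted p of 0.503 (edgeR). LOC113663736 reached 1 FPKM in the 3 Str libraries alone, so it passed the filter only through the group where it was high, and it was not tested with a Str library left out. With no filter on low values neither difference was called (adjusted p = 0.0788 and 0.0501, edgeR), and with edgeR's own filter the rise was not (adjusted p = 0.0542). The rise was also not called with any 1 Ctrl library left out, nor the fall without Rec-1 or Rec-2. Neither difference was called by limma or with the replicate block, nor the fall with the 2 groups alone.

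Of the receptors, 1 of 4 tested rose and 1 fell in Str vs. Ctrl. LOC113646216, the type 2 or decoy receptor, had 1.13, 0.720 and 0.690 FPKM in Rec, 3.15, 12.1 and 6.09 FPKM in Str, and 0.515, 1.02 and 1.73 FPKM in Ctrl. As in the cytokine loci, every Str library was above all others and Str-2 was the highest. The decoy receptor rose in Str vs. Ctrl (log2 fold change 2.82, adjusted p = 0.0305, edgeR) and fell in Rec vs. Str (log2 fold change -2.96, adjusted p = 0.0228, edgeR). LOC113648674, annotated as a type 1 receptor, went the other way: it fell to 0.545 ± 0.389 FPKM in Str, against 3.68 ± 0.422 FPKM in Ctrl (SD, n = 3 each; log2 fold change -2.71, adjusted p = 0.0349, edgeR). In Rec it had 1.68 ± 0.181 FPKM (log2 fold change against Str 1.72, adjusted p = 0.0994, edgeR). The most abundant locus of the list, sigirr, an inhibitory receptor of the family, averaged 10.5 ± 9.01 FPKM in Str and 30.2 ± 2.42 FPKM in Ctrl, with an adjusted p of 0.186 (edgeR). For Str vs. Ctrl, no rise was called without Str-2, Str-3 or any 1 Ctrl library, and the fall of LOC113648674 was not called without Str-2, Str-3 or any 1 Ctrl library, while sigirr was called as a fall without Str-2. In Rec vs. Str, no fall was called without Str-2, Str-3 or Rec-2, 2 were without Rec-3, and 1 rise was without Str-2. With the replicate block, neither difference of LOC113646216 was called. With the 2 groups alone, the fall of LOC113648674 was not called.

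Downstream, 1 of 21 tested MyD88 and NF-kB loci rose in Str vs. Ctrl and none fell (median log2 fold change 0.13), and the same locus alone fell in Rec vs. Str (median -0.27). A share of 1 in 21 is close to that of all tested genes, 2.78% of which rose and 4.11% of which fell in these comparisons. It was irak3, a kinase-like inhibitor of the IRAK step, with 1.77, 2.18 and 2.45 FPKM in Rec, 8.14, 17.6 and 6.74 FPKM in Str, and 1.52, 3.28 and 3.68 FPKM in Ctrl. The groups Str and Ctrl did not overlap, and Str-2 was again the highest. Its log2 fold change was 2.05 in Str vs. Ctrl (adjusted p = 0.0313, edgeR) and -2.24 in Rec vs. Str (adjusted p = 0.0207, edgeR). The adaptor myd88 had 6.38 ± 0.588 FPKM in Str and 7.95 ± 2.52 FPKM in Ctrl (adjusted p = 0.693, edgeR), and nfkbia, the inhibitor of NF-kB with the highest level of the list, 200 ± 14.1 FPKM in Str and 122 ± 5.54 FPKM in Ctrl (adjusted p = 0.323, edgeR). No locus of the list was called in Str vs. Ctrl with any 1 Str or Ctrl library left out, nor in Rec vs. Str without Rec-2.

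Genes that interleukin-1 induces in mammals split in both directions. In Str vs. Ctrl, 5 of 24 tested loci rose and 2 fell, with a median log2 fold change of -0.25, and in Rec vs. Str 5 fell and 1 rose, with a median of 0.17. The shares of all tested genes were 2.78% for rises and 3.1% for falls under transport, and after recovery 4.11% for falls and 5.03% for rises. The falls depended on the tool: DESeq2 called 7 rises and 6 falls in Str vs. Ctrl and 4 rises in Rec vs. Str, and the fit of the 2 groups alone called 4 falls in Str vs. Ctrl. The metalloreductase steap4 rose the most, to 32.3 ± 9.21 FPKM in Str, against 1.54 ± 0.688 FPKM in Ctrl (SD, n = 3 each; log2 fold change 4.48, adjusted p = 0.00399, edgeR). The other rises were in the transcription factor CEBPB (LOC113655797, log2 fold change 3.26), prostaglandin synthase 2 (LOC113642216, 2.62), SOCS3 (LOC113639654, 2.22), which restrains cytokine signaling, and the ribonuclease ZC3H12A (LOC113660830, 1.87), which degrades cytokine mRNAs. Of the 5 rises, only those of steap4 and CEBPB were called under every alternative. ZC3H12A was not called with no filter (adjusted p = 0.0536, edgeR) or with the replicate block. Nor was it called without Str-2, Str-3 or any 1 Ctrl library. Tumor necrosis factor (LOC113662866) fell to 8.04 ± 0.271 FPKM in Str, against 20.04 ± 3.46 FPKM in Ctrl (SD, n = 3 each; log2 fold change -1.30, adjusted p = 0.0341, edgeR), and it rose in Rec vs. Str (log2 fold change 1.68, adjusted p = 0.0135, edgeR). Its fall was not called with the replicate block or with any 1 Str or Ctrl library left out. LOC113634667 and LOC113642755 carry the same product and were not called. The other fall in Str was tnfaip2 (log2 fold change -1.70). The cytokine il6 averaged 34.8 ± 5.74 FPKM in Str and 13.3 ± 2.84 FPKM in Ctrl, short of the threshold (adjusted p = 0.0761, edgeR). It fell in Rec vs. Str (log2 fold change -1.68, adjusted p = 0.0375, edgeR). This fall of il6 was not called with the replicate block or in the fit of the 2 groups alone. Nor was it called without Ctrl-3, Rec-2 or any 1 Str library. Under transport, the rises dropped to 3 without Str-2 or Ctrl-1 and to 2 without Str-3 or either of Ctrl-2 and Ctrl-3, while the falls numbered 1 without Ctrl-1, 4 without Rec-2 and 0 without Str-1, Str-3, Ctrl-2 or Ctrl-3. In Rec vs. Str, 3 fell without Str-2 or Str-3, and the rises numbered 0 without Str-3 and 3 without Rec-3. Toll-like receptors, most of which also signal through MyD88, matched 9 loci, of which 5 were tested. No locus matched the entries tlr12, tlr13, tlr18, tlr21 and tlr22. Of the 5 tested loci, 1 fell in Str vs. Ctrl (LOC113642084, toll-like receptor 8, log2 fold change -1.60, adjusted p = 0.0258, edgeR) and rose in Rec vs. Str. The fall was not called without Ctrl-2 or Ctrl-3 or with any 1 Str library left out. With single libraries left out, the rise was called only without Ctrl-1. Neither difference was called by limma or with the replicate block.

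**Figure D4:**
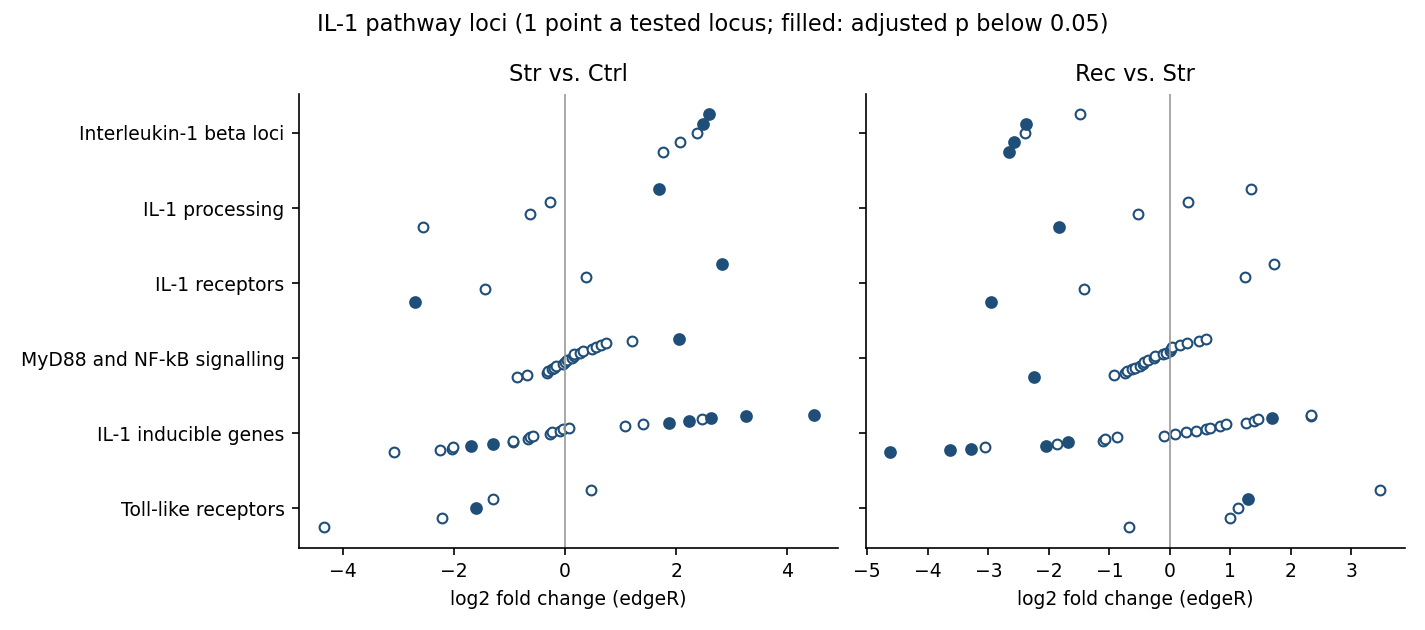
log2 fold change (edgeR) of each tested locus of the interleukin-1 beta family and of 5 lists of its pathway in Str vs. Ctrl (left) and Rec vs. Str (right). Each point is a locus, filled where the adjusted p is below 0.05, and points of a list are spread vertically only to keep them apart. The cytokine loci all lie above 0 on the left and below 0 on the right, while the lists hold loci on both sides.

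None of the 7 neutrophil and 11 macrophage markers tested rose in Str vs. Ctrl, where 2.78% of all tested genes rose. At that share, so few loci can hold no rise. Summed neutrophil markers (8 loci, none at 0 in all libraries) lay between 89.8 and 193 FPKM in Rec, 78.4 and 139 FPKM in Str, and 115 and 211 FPKM in Ctrl. These loci include LOC113653966, annotated as eosinophil peroxidase, so the list is not strictly of neutrophils. In Str vs. Ctrl, 2 of its 7 tested loci fell, where 3.1% of all tested genes fell. They include myeloperoxidase (LOC113661326, log2 fold change -3.05, adjusted p = 0.0225, edgeR). Summed macrophage markers (11 loci, none at 0 in all libraries) lay between 322 and 456 FPKM in Rec, 251 and 313 FPKM in Str, and 346 and 794 FPKM in Ctrl, and 1 of 11 fell in Str vs. Ctrl. Within Str, Str-2 had the highest sum of neutrophil markers (139 FPKM) and the lowest sum of macrophage markers (251 FPKM). Of the lymphocyte markers, 2 of 4 tested fell in Str vs. Ctrl, cd3e and LOC113654642 (ZAP-70). Epithelium markers were lower in every Str library than in any Ctrl or Rec library as a sum, with 1 of 12 tested loci called as falling in Str vs. Ctrl and 5 as rising and 1 as falling in Rec vs. Str. The fall in Rec vs. Str was that of LOC113645006 (epithelial cell adhesion molecule, log2 fold change -2.59). It went against the sum and was called under every alternative. Summed liver markers (13 loci) lay between 1.19 and 15.5 FPKM in Rec, 16.99 and 68.9 FPKM in Str, and 3.99 and 14.7 FPKM in Ctrl, highest in Str-3 and not in Str-2, with none of 5 tested loci called by edgeR. Neither neutrophil fall was called without Ctrl-3 or with any 1 Str library left out, neither lymphocyte fall nor the macrophage fall without Ctrl-3 or Str-3. The epithelium fall was lost with any 1 Str or Ctrl library, Rec-1 or Rec-2 left out. Without Rec-2 another epithelium locus fell and 1 rose, and without Rec-3 the list held 4 falls and 1 rise. The epithelium rises in Rec vs. Str, where 5.03% of all tested genes rose, numbered 0 to 5 with single libraries left out, with 0 without Str-3. In Str vs. Ctrl, 2 liver loci rose without Rec-1 and 1 without Rec-3. The part of these shifts in cell and tissue markers in the levels of the interleukin-1 beta loci was not tested.

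**Figure D5:**
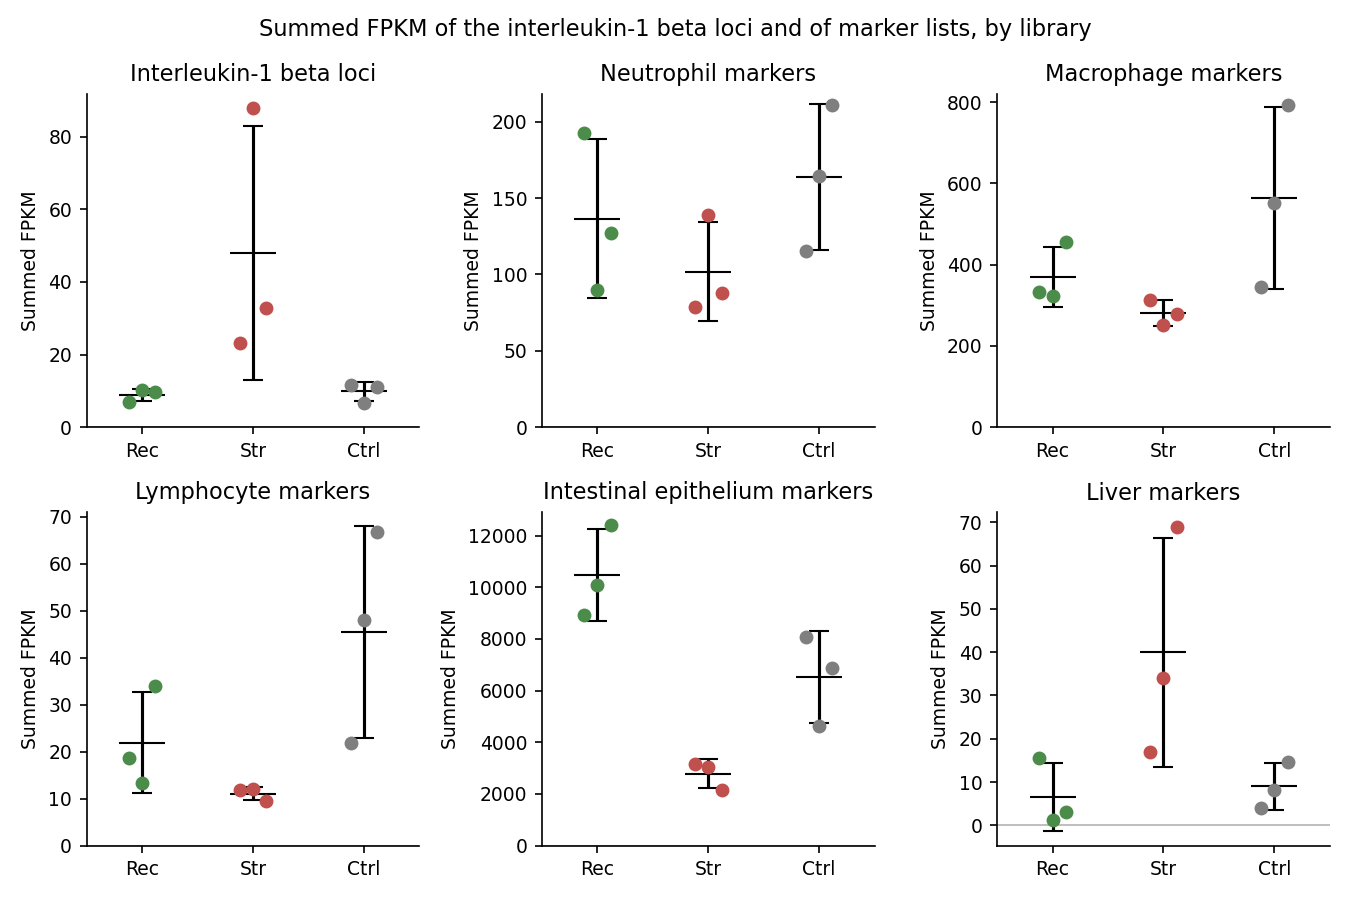
Summed FPKM of the 6 interleukin-1 beta loci and of 5 lists of cell or tissue markers in Rec, Str and Ctrl (1 panel a list, linear axes). Points are libraries 1 to 3 of each group, the long bar is the mean and the error bar 1 SD. The interleukin-1 beta sum is highest in Str, the macrophage, lymphocyte and epithelium sums are lowest there, and the liver sum is highest in Str.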

How the data were processed

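The authors sequenced posterior intestine from 9 fish, used Cutadapt 1.9 for trimming and mapped to a genome of the yellow catfish. The submitters' processing notes list HISAT and StringTie, and neither their versions nor the build are named. The authors deposited 1 table with an FPKM value and an expected count per gene and library. How the expected counts were made is not stated. They were rounded to whole numbers here, and 3598 values were at 4 counts, against 645 at 3 and 552 at 5. The table also holds the gene annotation used here.

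From the deposited counts, edgeR 4.0.16 (R 4.3.3) fitted the 3 groups in 1 model with TMM scaling and the two-sided quasi-likelihood F-test, over the 17244 of 26163 genes that reached 1 FPKM in 3 or more libraries. p-values were adjusted over those genes by the Benjamini-Hochberg method, and a gene rose or fell where the value was below 0.05. Standard errors were derived by dividing the size of the log2 fold change by the root of F. Alternatives were RLE scaling, DESeq2 1.42.0, limma 3.58.1 on log2 FPKM, other filters, counts divided by 4, the 2 groups alone, a replicate block and leaving out each library. Scripts were tested on simulated data. Summaries used Python 3.11.15 with matplotlib 3.10.9, pandas 2.3.3, numpy 2.4.6 and scipy 1.17.1.

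Groups came from the labels, which the study's read statistics leave in doubt for Str and Rec. The rule for the 6 loci uses no expression value, but this family, the gene lists and the tests were chosen with earlier results of these data known. Named genes are the 6 loci, the 5 genes with the highest correlation with their sum, and, of each list, loci called in any comparison or with a high mean FPKM. Lists were matched by symbol or product, and all matching loci count. Entries that matched no locus, such as those for caspases, add nothing to the counts. The entries cd22 (32 loci) and mrc1 (90 loci) were left out as they matched over 10 loci, as were merged loci.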

Additional observations from a re-analysis of the deposited data

How the results depend on the processing

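For the 5 tested loci, the direction was the same in all 90 alternative fold changes in Str vs. Ctrl and in all 90 in Rec vs. Str, while the calls were not. As the groups did not overlap in these loci, that direction could hardly have changed. In Str vs. Ctrl, against 2 loci called, DESeq2 called 4, the study's thresholds 5, the fit with no filter 1 (LOC113638465, which the filter of 1 FPKM left out), edgeR's own filter 2 (LOC113638324 and LOC113638465), the fit of the 2 groups alone 0 (5 at an unadjusted p below 0.05) and single libraries left out 0 to 2. LOC113638465 entered the fits with other filters only through Str. Each limma fit called 2 loci in Str vs. Ctrl (LOC113635105 and LOC113638324) and 2 in Rec vs. Str (LOC113638324 and LOC113638463). In Rec vs. Str, against 3 called, the study's thresholds gave 5, the 2 groups alone 0 (5 at an unadjusted p below 0.05) and single libraries left out 0 to 2. With the replicate block, edgeR called 0 of 5 in Str vs. Ctrl (adjusted p 0.0987 to 0.254, 4 at an unadjusted p below 0.05) and 0 of 5 in Rec vs. Str (0.0619 to 0.163, 5 at an unadjusted p below 0.05). Same-numbered libraries correlated between -0.26 and 0.19 in their deviations from the group means. These weak values show no pairing by number, but deviations within groups of 3 cannot exclude a pairing. In Rec vs. Ctrl, where nothing was called under any alternative, LOC113635103 changed sign with limma on log2(FPKM + 0.1) (0.0065) and with the 2 groups alone (0.0026), and ranged from -0.42 to 0.38 over single libraries left out. LOC113638324 ranged there from -0.37 to 0.030 and LOC113638463 from -1.14 to 0.011, each above 0 only without Ctrl-1. For the paralog ratios, single libraries left out gave 0 to 5 of 15 pairs past the threshold, and no other alternative gave any. The counts for the pathway and marker lists and the bound for LOC113638465 under alternatives were added after the values were seen. Where a call was lost with a library left out, fewer samples were fitted; beyond that, the cause was not tested. A tested locus had 56 to 2022 counts a library, or 14 read pairs at the lowest, so the levels of single loci in Rec and Ctrl carry sizeable counting error beside the spread between fish, and which limits a comparison more was not tested.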
